A study of Homo sapiens with 8 samples.

Results

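The 10 genes described here encode NEDD8, a small ubiquitin-like protein, and the enzymes that attach it to other proteins. They were picked by function from the 61533 gene identifiers of the count tables, by matching each identifier to its symbol: NEDD8 itself, the activating enzyme (E1) subunits NAE1 and UBA3, the conjugating enzymes (E2) UBE2M and UBE2F, and the DCN1-like ligases (E3) DCUN1D1, DCUN1D2, DCUN1D3, DCUN1D4 and DCUN1D5. RNA came from 2 established human squamous carcinoma lines, CAL27 from the tongue and A431 from an epidermoid carcinoma. Within each line, cells had spent 16 h with an inhibitor that the labels name only as NEDD8i or with DMSO, the solvent control. The 4 groups were CAL27 with NEDD8i, CAL27 with DMSO, A431 with NEDD8i and A431 with DMSO, with 2 libraries in each. Sample names in the count-table headers of the NEDD8i libraries carry the letters MLN, which are not spelled out, and no dose is given in the sources used. The labels are silent on whether paired libraries are separate cultures, and the p-values below therefore describe library-to-library spread that may be technical. Each line stands for 1 tumour.

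NEDD8 is activated by a heterodimer of NAE1 and UBA3, in which UBA3 carries the catalytic cysteine. It then passes to UBE2M or UBE2F and from there to a cullin, the scaffold of a cullin-RING ubiquitin ligase. UBE2M is known to act with the RING protein RBX1 on most cullins, and UBE2F with RNF7 (also called RBX2) on CUL5. The DCN1-like proteins hold the charged E2 against the cullin and speed the transfer. NEDD8 on a cullin switches the ligase on, and inhibitors of the NEDD8-activating enzyme remove that modification and let many cullin-RING substrates build up. None of this is visible in RNA, and the values below are transcript levels.

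The libraries held 49037868 to 62509817 counts each, made with a kit that reads the 3' ends of transcripts. Levels are given as CPM, each count set against its library's total after TMM scaling, so they compare 1 gene between libraries and not 2 genes with each other. All 10 genes passed the filter on low counts, with 304 to 13137 counts per library. Markers of squamous epithelium had counts for 8 of 8 genes, with a summed 15141 to 15703 CPM with NEDD8i and 13463 to 13536 with DMSO in CAL27, and 11137 to 11510 with NEDD8i and 9566.5 to 9643.8 with DMSO in A431. Leukocyte markers summed to 0 to 0.167 CPM, with PTPRC at 0 in every library. Fibroblast markers summed to 6.45 to 10.6 CPM with NEDD8i and 20.2 to 23.7 with DMSO in CAL27, and to 17.6 to 18.2 with NEDD8i and 35.3 to 38.6 with DMSO in A431. Endothelial markers summed to 10.3 to 10.7 CPM with NEDD8i and 5.95 to 6.63 with DMSO in CAL27, and to 5.23 to 5.56 with NEDD8i and 19.6 to 21.9 with DMSO in A431, and melanocyte markers to 0.76 to 3.09 over all libraries. Mitochondrial transcripts gave 1.45% and 1.02% of counts with NEDD8i and 1.77% and 1.56% with DMSO in CAL27, and 1.96% and 2.27% with NEDD8i and 2.69% and 3.15% with DMSO in A431. Summed fibroblast markers and mitochondrial transcripts were lower and summed squamous markers higher with NEDD8i in each line. Summed endothelial markers were higher in CAL27 and lower in A431. Single markers did not all follow the sums. Mean KRT14, KRT6A, CDH1, EPCAM and DSG3 were higher with NEDD8i in both lines, and KRT5, TP63 and ITGB4 lower. CDH5 carried the endothelial changes. VWF had means of 2.84 CPM with NEDD8i and 2.77 with DMSO in A431, and 0.16 and 0.37 in CAL27. The part of these measures in the results below was not tested.

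Each of the 10 genes that passed the test in a line rose with NEDD8i. In CAL27, 6 of the 10 genes rose with NEDD8i and 0 fell at an adjusted p under 0.05 (edgeR quasi-likelihood test, Benjamini-Hochberg over 18738 genes), while 23.2% of all genes tested rose and 26.4% fell. In A431, 7 rose and 0 fell, beside 22.5% and 21.1% of all genes. The median log2 change was 0.37 over the 10 genes in CAL27 against -0.04 over all genes, and 0.53 in A431 against -0.01. UBE2M, DCUN1D1, DCUN1D2, DCUN1D3 and DCUN1D5 rose in both lines. NEDD8 was called in CAL27, and NAE1 and UBE2F were called in A431. UBA3 and DCUN1D4 were called in neither line. The share of the genome called was high in both lines, 49.6% in CAL27 and 43.6% in A431, so a call on 1 gene is not rare here.

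**Figure D1:**
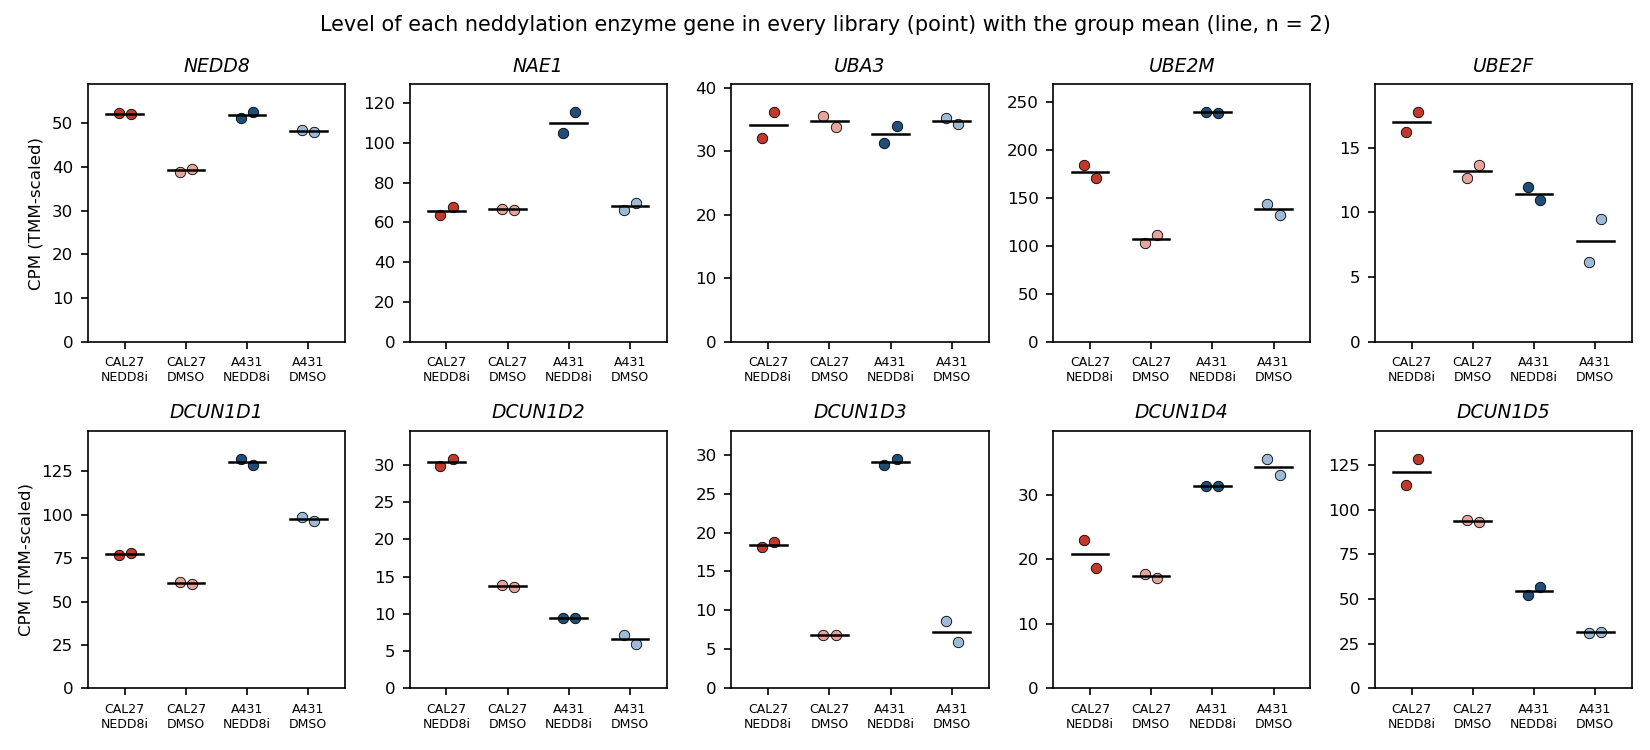
Level of each of the 10 genes in every library, as TMM-scaled CPM on a linear axis from 0, with CAL27 NEDD8i, CAL27 DMSO, A431 NEDD8i and A431 DMSO from left to right. Points are libraries and the line is the mean of 2. UBE2M and DCUN1D3 sit higher with NEDD8i in both lines, NAE1 stands apart only in A431 with NEDD8i at 104.8 and 115.5 CPM, and the 4 groups of UBA3 lie between 31.3 and 36.2 CPM.

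The modifier comes first. NEDD8 (ENSG00000129559.13, chromosome 14, 24216857 to 24232367 on GRCh38, minus strand) stood at 52.2 and 52.1 CPM with NEDD8i and 38.8 and 39.5 CPM with DMSO in the 2 CAL27 libraries of each group. The CAL27 groups do not overlap. The log2 change was 0.41 ± 0.07 (± is an approximate standard error from the F statistic of the fit), with an edgeR adjusted p of 5.71e-05. In A431 the levels were 51.2 and 52.5 CPM with NEDD8i and 48.3 and 47.9 CPM with DMSO. There the change of 0.11 ± 0.07 did not pass (edgeR adjusted p = 0.217). With DMSO, CAL27 was lower than A431 by a log2 difference of -0.30, which passed, whereas with NEDD8i the difference between the lines was 0.01 and did not. The CAL27 response exceeded the A431 response by 0.30 ± 0.10 (edgeR adjusted p = 0.0198), a call lost without A431 NEDD8i replicate 1 or 2, CAL27 DMSO replicate 1 or CAL27 NEDD8i replicate 1. Bulk RNA cannot tell a change in each cell from a change in the share of cells that make the transcript. A readthrough gene, NEDD8-MDP1, shares 22.7% of the exonic bases of NEDD8 and had 0 counts in every library. Reads in exons of both genes were dropped, so the 0 does not show whether the readthrough transcript was present.

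The E1 subunits gave 1 call between them, for NAE1 in A431. NAE1 (ENSG00000159593.15, chromosome 16, 66802875 to 66830976, minus strand), the regulatory subunit, stood at 63.9 and 67.9 CPM with NEDD8i and 66.8 and 66.4 CPM with DMSO in CAL27. These groups overlap, and the log2 change was -0.01 ± 0.06 (edgeR adjusted p = 0.887). NAE1 in A431 had 104.8 and 115.5 CPM with NEDD8i and 66.4 and 69.9 CPM with DMSO. That was a 1.62-fold rise, log2 0.69 ± 0.06 (edgeR adjusted p = 1.17e-07). The responses of the lines differed by -0.71 ± 0.09, CAL27 minus A431 (edgeR adjusted p = 1.02e-05).

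UBA3 (ENSG00000144744.17, chromosome 3, 69054730 to 69080408, minus strand), the catalytic subunit, had 32.1 and 36.2 CPM with NEDD8i and 35.5 and 33.9 CPM with DMSO in CAL27. UBA3 in A431 had 31.3 and 34.1 CPM with NEDD8i and 35.3 and 34.3 CPM with DMSO. Its log2 changes of -0.02 ± 0.09 and -0.09 ± 0.09 did not pass (edgeR adjusted p = 0.864 in CAL27 and 0.440 in A431). No pair of neighbouring groups in the order of its levels differed.

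For the E1 subunits, the ratio of counts within a library can be compared between libraries, because scaling cancels. Its size does not give the balance of the 2 transcripts. The ratio of NAE1 to UBA3 counts was 1.99 and 1.88 with NEDD8i and 1.88 and 1.96 with DMSO in CAL27. In A431 it was 3.35 and 3.39 with NEDD8i and 1.88 and 2.04 with DMSO. The A431 NEDD8i libraries thus stand clear of the other 6, whose ratios span 1.88 to 2.04. The ratio rose 1.72-fold in A431 and was 1.01 times that of DMSO in CAL27, as means on the log scale, with no test of the ratio itself.

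**Figure D2:**
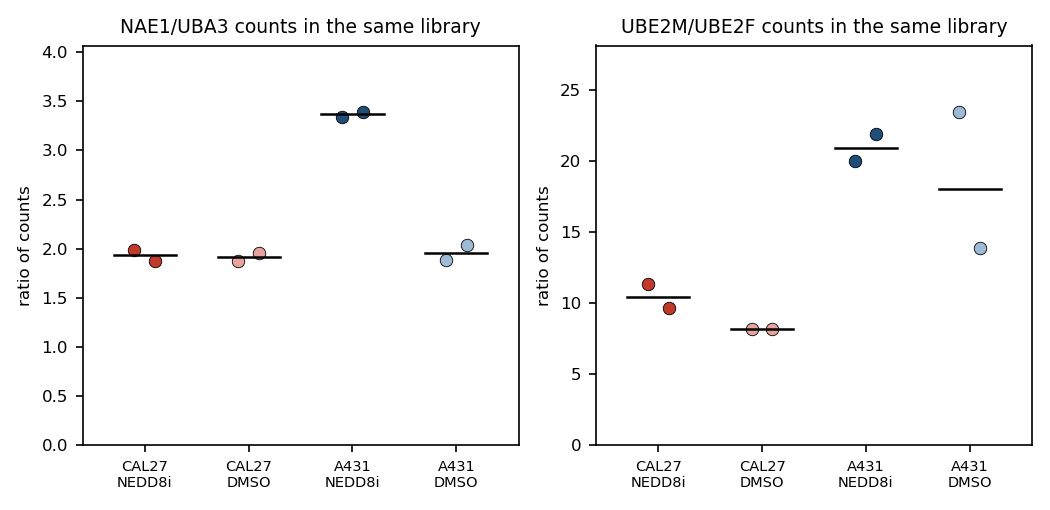
Ratio of counts of 2 genes in the same library, on linear axes from 0, for NAE1 over UBA3 and for UBE2M over UBE2F. Points are libraries, lines are means on the log scale, and groups run from CAL27 NEDD8i on the left to A431 DMSO on the right. The NAE1 to UBA3 ratio is 3.35 and 3.39 in A431 with NEDD8i and at most 2.04 elsewhere.

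Both E2 transcripts were higher with NEDD8i in every library than with DMSO in the same line. UBE2M (ENSG00000130725.8, chromosome 19, 58555712 to 58558611, minus strand) had 184.1 and 171.0 CPM with NEDD8i and 103.5 and 111.8 CPM with DMSO in CAL27. The rise was 1.65-fold, log2 0.72 ± 0.06 (edgeR adjusted p = 9.41e-09). The A431 libraries had 239.9 and 239.2 CPM with NEDD8i and 143.9 and 132.5 CPM with DMSO. There the rise was 1.73-fold, log2 0.79 ± 0.06 (edgeR adjusted p = 4.08e-09). The 4 groups do not overlap, and from low to high they were CAL27 DMSO, A431 DMSO, CAL27 NEDD8i and A431 NEDD8i, each step past the test (for CAL27 NEDD8i against A431 DMSO 65.7% of all genes were called). The lines' responses did not differ past the threshold, at -0.07 ± 0.08 (edgeR adjusted p = 0.560). A processed copy, UBE2MP1, is 97.1% identical to UBE2M over 550 aligned bases and had 30 to 102 counts per library. UBE2MP1 rose by 1.37 ± 0.49 in A431 (edgeR adjusted p = 0.0318). Its change of 0.96 ± 0.49 in CAL27 did not pass (edgeR adjusted p = 0.117). Reads placed in both genes were dropped, so these counts do not show how many UBE2M reads were lost.

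The 250 bases before the UBE2M start are shown because UBE2M is the E2 called in both lines and this stretch lies in no exon of the count annotation. They run over chr19:58558612-58558861 on GRCh38.p14, minus strand, and come from RefSeq. Capitals mark the letters TGACG, the core of the cyclic AMP response element, on either strand.
UBE2M: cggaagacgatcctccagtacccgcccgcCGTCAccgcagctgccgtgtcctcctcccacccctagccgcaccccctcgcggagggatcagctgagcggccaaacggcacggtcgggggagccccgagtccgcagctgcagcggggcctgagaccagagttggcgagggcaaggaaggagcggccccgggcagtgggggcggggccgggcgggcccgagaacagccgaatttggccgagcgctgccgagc

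UBE2F (ENSG00000184182.19, chromosome 2, 237966955 to 238042782, plus strand) had 16.2 and 17.8 CPM with NEDD8i and 12.7 and 13.6 CPM with DMSO in CAL27. These groups do not overlap, but the log2 change of 0.37 ± 0.16 did not pass (edgeR adjusted p = 0.0693), though it did under 7 of 19 alternative settings. In A431 the levels were 12.0 and 10.9 CPM with NEDD8i and 6.14 and 9.53 CPM with DMSO. The rise of 0.55 ± 0.17 passed (edgeR adjusted p = 0.0136) and rested on the lower DMSO library. It was 0.27 (edgeR adjusted p = 0.205) without A431 DMSO replicate 1 and 0.90 without replicate 2, and 0.49 (edgeR adjusted p = 0.0702) without A431 NEDD8i replicate 1. The responses differed by -0.18 (edgeR adjusted p = 0.624). UBE2F was higher in CAL27 than in A431 with either agent, by 0.57 with NEDD8i and 0.75 with DMSO, the last being 0.47 without A431 DMSO replicate 1. The readthrough gene UBE2F-SCLY shares 23.2% of the exonic bases of UBE2F and had 0 to 4 counts. Reads in exons of both genes were dropped, so these counts do not show how much readthrough transcript was present.

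The ratio of UBE2M to UBE2F counts was 11.3 and 9.63 with NEDD8i and 8.16 and 8.20 with DMSO in CAL27. In A431 it was 20.0 and 21.9 with NEDD8i and 23.5 and 13.9 with DMSO. The A431 groups overlap, and the A431 ratios all lie above the CAL27 ratios.

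The 5 DCN1-like genes spanned the range from the largest rises among the 10 genes to no call. DCUN1D3 (ENSG00000188215.10, chromosome 16, 20854925 to 20900358, minus strand), a family member known to sit at the plasma membrane through a lipid anchor, rose most in both lines. It had 18.1 and 18.8 CPM with NEDD8i and 6.82 and 6.87 CPM with DMSO in CAL27, a 2.70-fold rise (log2 1.43 ± 0.15, edgeR adjusted p = 2.37e-07). A431 cells had 28.6 and 29.5 CPM with NEDD8i and 8.64 and 5.90 CPM with DMSO, a 3.99-fold rise (log2 1.995 ± 0.15, edgeR adjusted p = 5.44e-09). The NEDD8i libraries of each line are above all 4 DMSO libraries, and the DMSO groups overlap.

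The smaller DCUN1D3 response in CAL27, a difference of -0.56 ± 0.20, passed narrowly (edgeR adjusted p = 0.0416). It was -0.86 without A431 DMSO replicate 1 and -0.30 without replicate 2 (edgeR adjusted p = 0.255), and it missed the threshold in 10 of 18 alternatives, among them leaving out any library other than A431 DMSO replicate 1. Exons of ERI2 on the same strand and of LYRM1 on the opposite strand cover 2.35% and 1.99% of its exonic bases, outside the last 500 exonic bases where a 3' kit places most reads.

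DCUN1D2 (ENSG00000150401.15, chromosome 13, 113455819 to 113490711, minus strand) had 29.9 and 30.8 CPM with NEDD8i and 13.8 and 13.6 CPM with DMSO in CAL27. That was a 2.21-fold rise, log2 1.15 ± 0.12 (edgeR adjusted p = 2.12e-07). In A431 it had 9.39 and 9.43 CPM with NEDD8i and 7.20 and 5.995 CPM with DMSO, a rise of 0.51 ± 0.13 (edgeR adjusted p = 0.00305). The CAL27 libraries are above the A431 libraries with either agent. The CAL27 rise was the larger by 0.64 ± 0.17 (edgeR adjusted p = 0.00750), and it passed under each of the 18 alternatives.

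DCUN1D5 (ENSG00000137692.12, chromosome 11, 103050686 to 103092189, minus strand) rose in both lines, more in A431. It had 113.7 and 128.7 CPM with NEDD8i and 94.4 and 93.2 CPM with DMSO in CAL27, a rise of 0.37 ± 0.07 (edgeR adjusted p = 0.000174). In A431 it had 52.2 and 56.8 CPM with NEDD8i and 31.0 and 31.6 CPM with DMSO, a 1.74-fold rise (log2 0.80 ± 0.07, edgeR adjusted p = 7.17e-08). The CAL27 response was smaller by -0.43 ± 0.10 (edgeR adjusted p = 0.00233), yet each CAL27 library stayed above each A431 library. An annotated gene without a symbol, ENSG00000260966, lies over 40.3% of the exonic bases of DCUN1D5 and 99.8% of the last 500. Reads there belonged to both genes and were dropped, so the DCUN1D5 counts come from the remaining exonic bases.

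DCUN1D1 (ENSG00000043093.15, chromosome 3, 182938074 to 182985953, minus strand), also known as SCCRO for its link to squamous cell carcinoma, had 76.7 and 77.9 CPM with NEDD8i and 61.3 and 60.0 CPM with DMSO in CAL27. Its log2 rise was 0.35 ± 0.06 (edgeR adjusted p = 3.77e-05). The A431 levels were 132.5 and 128.7 CPM with NEDD8i and 98.6 and 96.6 CPM with DMSO, a rise of 0.42 ± 0.05 (edgeR adjusted p = 5.62e-06). The 4 groups do not overlap, and both A431 groups are above both CAL27 groups. The responses differed by -0.07 (edgeR adjusted p = 0.561).

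DCUN1D4 (ENSG00000109184.15, chromosome 4, 51843063 to 51916837, plus strand) had 23.0 and 18.6 CPM with NEDD8i and 17.7 and 17.1 CPM with DMSO in CAL27. The change of 0.26 ± 0.10 did not pass (edgeR adjusted p = 0.0520), but did under 13 of 19 alternatives, and it was 0.09 without CAL27 NEDD8i replicate 1. In A431 it had 31.4 and 31.3 CPM with NEDD8i and 35.7 and 33.1 CPM with DMSO, a change of -0.13 ± 0.10 (edgeR adjusted p = 0.319). The difference of 0.39 ± 0.15 passed (edgeR adjusted p = 0.0486), was 0.22 without CAL27 NEDD8i replicate 1 (edgeR adjusted p = 0.302), and missed the threshold when any library other than A431 DMSO replicate 2 or CAL27 NEDD8i replicate 2 was left out.

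**Figure D3:**
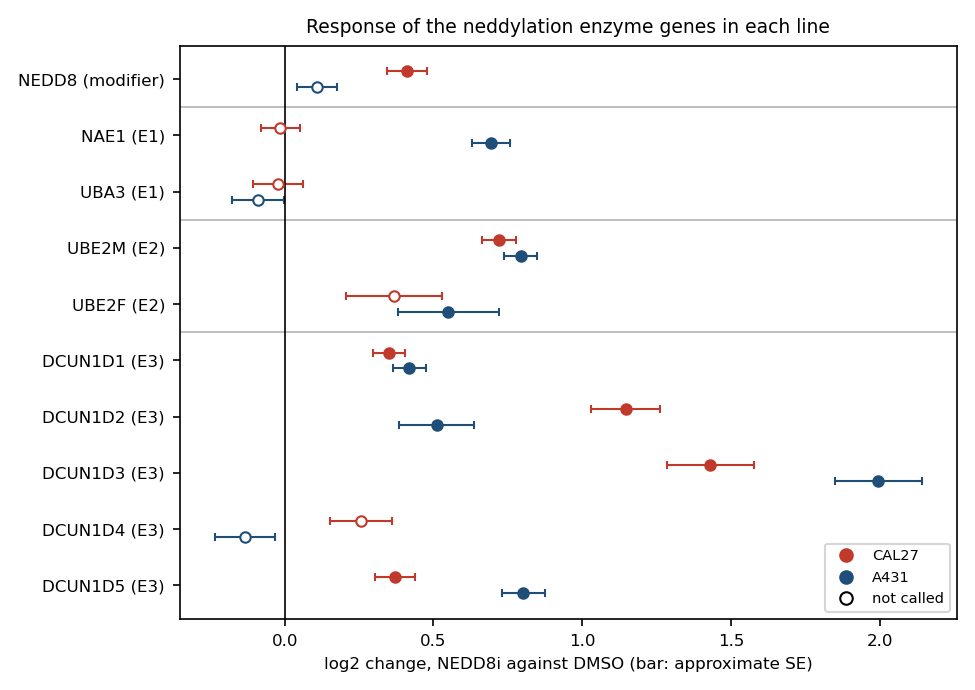
Log2 change with NEDD8i against DMSO for each gene, CAL27 above A431 in each row, with approximate standard errors as bars. Filled points passed an adjusted p under 0.05 and open points did not. DCUN1D3 lies farthest to the right in both lines, at 1.43 in CAL27 and 1.995 in A431.

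Set side by side, 6 of the 10 responses differed between the lines, 3 larger in CAL27 (NEDD8, DCUN1D2, DCUN1D4) and 3 smaller (NAE1, DCUN1D3, DCUN1D5). The count was 3 without A431 NEDD8i replicate 1 or 2, CAL27 DMSO replicate 1 or CAL27 NEDD8i replicate 1. Of all genes, 14.2% had a more positive change in CAL27 and 19.8% a more negative one, 34% in all. The 2 comparisons have no library in common. Without overlap between NEDD8i and DMSO libraries, 8 genes were higher in CAL27, beside 35% of all genes, and 0 were lower, beside 39.5%. In A431, 8 were higher, beside 32.9%, and UBA3 and DCUN1D4 were lower, beside 34.6%.

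**Figure D4:**
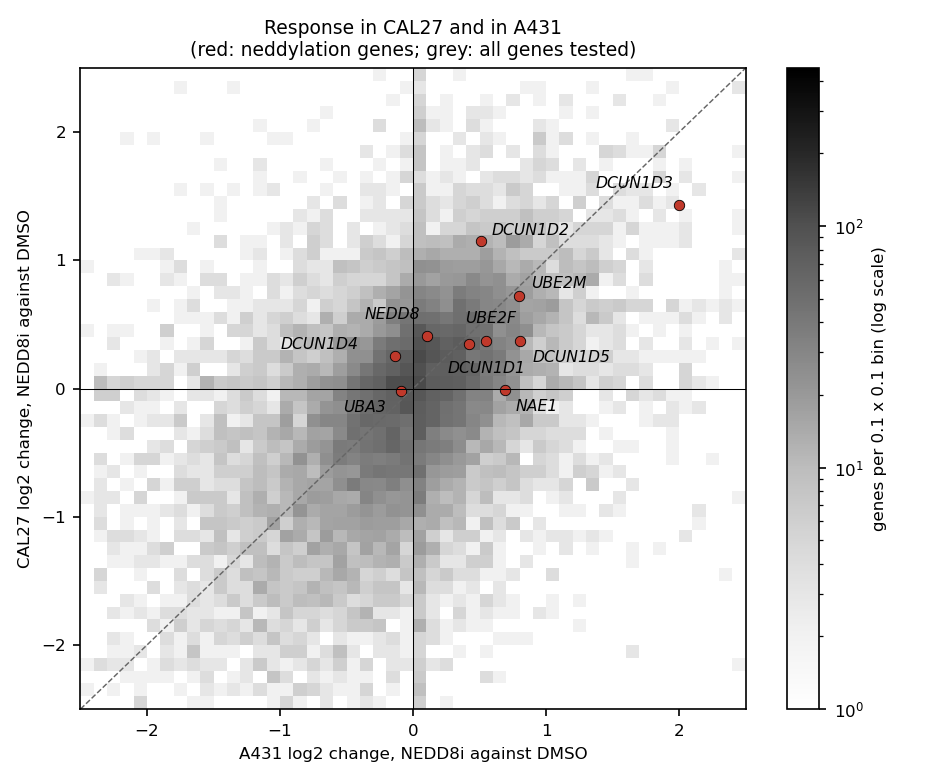
Log2 change in CAL27 (vertical) against the log2 change in A431 (horizontal), NEDD8i against DMSO, with the 10 genes as red points. Grey squares count the genes tested per bin of 0.1 by 0.1 on a log colour scale, for the 16151 of 18738 genes within 2.5 on both axes, and the dashed line marks equal change. UBE2M and DCUN1D1 lie near the dashed line, DCUN1D2 above it, and NAE1, DCUN1D5 and DCUN1D3 below it.

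The lines also differed without the inhibitor. With DMSO, UBE2F, DCUN1D2 and DCUN1D5 were higher in CAL27 than in A431, by 0.75, 1.05 and 1.58 on the log2 scale, beside 29.9% of all genes higher. NEDD8, UBE2M, DCUN1D1 and DCUN1D4 were lower in CAL27, by differences of -0.30, -0.36, -0.69 and -0.98, beside 29% of all genes lower and 58.9% called either way. NAE1, UBA3 and DCUN1D3 did not pass, at -0.03, -0.00 and -0.09. With NEDD8i, the same 3 genes were higher in CAL27, at 0.57, 1.69 and 1.15, beside 30.2% of all genes. NAE1 at -0.74, UBE2M at -0.43, DCUN1D1 at -0.76, DCUN1D3 at -0.65 and DCUN1D4 at -0.59 were lower, beside 31.8% and 62% either way. NAE1 and DCUN1D3 thus passed between the lines with NEDD8i and not with DMSO, and NEDD8 passed with DMSO and not with NEDD8i.

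Across the 8 libraries, the log2 CPM of UBE2M followed that of DCUN1D3 (Pearson r = 0.947) and of NEDD8 (r = 0.866). DCUN1D2 and DCUN1D5 had r = 0.928, and UBE2F and DCUN1D5 r = 0.910. DCUN1D4 ran against DCUN1D5 with r = -0.880. These are descriptions over 8 libraries that share 2 lines and 2 treatments, so 4 group means set most of each value. Of the 9062 genes with a mean of at least 10 CPM, those most like UBE2M were BYSL, BCL2L2 and ACTN1, with r = 0.996, 0.995 and 0.995. BYSL had group means of 96.1 CPM in CAL27 with NEDD8i, 46.8 in CAL27 with DMSO, 137.7 in A431 with NEDD8i and 64.3 in A431 with DMSO. For NEDD8 they were TMCC1, GANC and CDKN2AIP, with r = 0.995, 0.995 and 0.994. For NAE1 they were NHSL1, CTBP2 and CBLC, with r = 0.990, 0.989 and 0.987, and for UBE2F SERPINE2, YES1 and TCP11L1, with r = 0.969, 0.967 and 0.966. For UBA3, whose 8 libraries span 31.3 to 36.2 CPM, the most similar were MTREX, TIMM8A and TEDC1, with r = 0.826, 0.784 and 0.781.

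Promoter letters were read for all 10 genes from RefSeq on GRCh38.p14, as 250 bases before to 50 after each start, 12 entries in all. Searched on both strands, the antioxidant response core TGACNNNGC was in 13.3% of all 35116 promoters, an ATF4 element TGATGNAAT in 0.991%, the cyclic AMP response element TGACGTCA in 1.85%, the E-box CACGTG in 7.26% and an E2F site TTTNNCGC in 6.89%. UBA3 and UBE2F held an E2F match, at -241 and -86 from the start, and the second promoter entry of DCUN1D4, at a start downstream of the first, an antioxidant core match at -154. The other 7 genes held none of the 5. The core TGACG, a part of the full cyclic AMP element, was added after these promoters had been read. It was in 5 of the 12 entries, from 5 genes (NEDD8, UBE2M, DCUN1D3, DCUN1D4 and DCUN1D5), and in 24.6% of all promoters. Windows of 30 bases around it are shown for the genes called in at least 1 line other than UBE2M, with the match in capitals. They lie on the minus strand at chr14:24232491-24232520, chr14:24232444-24232473, chr16:20900485-20900514 and chr11:103092194-103092223. Unlike the UBE2M stretch, both NEDD8 windows and the DCUN1D3 window touch an exon of the count annotation. The DCUN1D5 window does not.
NEDD8, first match: agaatcgcagagtCGTCAtctctgctgttg
NEDD8, second match: ttccaatttacgaCGTCActgaaccgaaac
DCUN1D3: tttatgtgcgtcgTGACGcaatcttccact
DCUN1D5: ggctccgcgattgCGTCActtccgggcctc
A match is a description of letters and not evidence of a bound factor.

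Of the 10 genes, 4 have the start of a gene on the opposite strand within 1000 bases. LYRM1, whose start lies 456 bases from that of DCUN1D3, rose with it, by 0.91 ± 0.10 in CAL27 and 1.35 ± 0.10 in A431 (edgeR adjusted p = 5.18e-07 and 5.25e-09). As for DCUN1D3, its CAL27 response was the smaller, by -0.44 (edgeR adjusted p = 0.0213). The exons of the pair share 124 bases. Counting ignored strand, and reads there belonged to both genes and were dropped. GMPR2, 55 bases from NEDD8, had a change of 0.07 in CAL27 and fell by 0.71 in A431 (edgeR adjusted p = 1.92e-07). TMCO3 beside DCUN1D2 had changes of -0.06 and -0.07, and MZF1-AS1 beside UBE2M -0.71 and 0.05, none of which passed.

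The partners and opponents of these enzymes moved in both directions. Of 8 cullin genes, 3 rose and 2 fell in CAL27, with a median log2 change of 0.04, beside 23.2% and 26.4% of all genes. In A431, 4 rose and 3 fell, with a median of 0.13, beside 22.5% and 21.1%. CUL2, CUL3 and CUL5 rose in both lines, CUL3 by 0.42 ± 0.05 in CAL27 and 0.60 ± 0.05 in A431. CUL2 rose by 0.28 and 0.22, and CUL5 by 0.30 and 0.35. CUL7 and CUL9 fell in both, CUL9 to 3.64 and 5.91 CPM with NEDD8i in CAL27, against 15.2 and 13.2 with DMSO. Its changes were -1.56 ± 0.15 in CAL27 and -0.71 ± 0.13 in A431, and those of CUL7 were -0.86 and -0.38. The other calls were in A431 alone, where CUL1 rose by 0.66 and CUL4B had -0.60, named after their values were seen.

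The RING partners of the E2 enzymes, named here after their values were seen, responded differently in the lines. RBX1 had 80.1 and 78.9 CPM with NEDD8i and 67.5 and 67.7 with DMSO in CAL27, a rise of 0.23. RBX1 in A431 had 54.0 and 58.1 CPM with NEDD8i and 86.7 and 77.7 with DMSO, a change of -0.55. RNF7 had a change of 0.16 in CAL27 (edgeR adjusted p = 0.0747) and of -0.62 in A431. The differences between the lines, 0.79 ± 0.09 for RBX1 and 0.78 ± 0.10 for RNF7, passed (edgeR adjusted p = 4.42e-06 and 8.08e-06).

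Among genes that process or remove NEDD8, SENP8, the protease that matures and deconjugates it, fell in both lines. It had 0.967 and 0.802 CPM with NEDD8i and 2.76 and 2.29 with DMSO in CAL27, a change of -1.51 ± 0.28, and in A431 2.85 and 3.77 CPM with NEDD8i and 6.05 and 5.59 with DMSO, a change of -0.81 ± 0.25. Of the 3 genes of that list, 1 rose in CAL27 (COPS5, by 0.24) and 1 fell, beside 23.2% and 26.4% of all genes. In A431, 0 rose and 1 fell, beside 22.5% and 21.1%. NUB1, which targets NEDD8 for breakdown, fell to 35.9 and 34.9 CPM with NEDD8i in CAL27, against 69.6 and 69.6 with DMSO (log2 -0.97 ± 0.06). In A431 it had 46.5 and 47.9 CPM with NEDD8i and 70.7 and 70.1 with DMSO (log2 -0.58 ± 0.06). NUB1 belongs to the 4 listed genes of cullin exchange, RING inhibition and NEDD8 turnover. Along with CAND1 at -0.13 it was 1 of 2 that fell in CAL27, and it was the 1 that fell in A431. Of the 4 genes, 0 rose in either line, beside the same shares of all genes.

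Other ubiquitin-like systems served as the setting. Of 8 other E1 genes, 4 rose and 2 fell in CAL27, where 49.6% of all genes were called, and 3 rose and 3 fell in A431, where 43.6% were. Of 11 other modifiers, 8 rose and 2 fell in CAL27, beside 23.2% and 26.4% of all genes, and 1 rose and 5 fell in A431, beside 22.5% and 21.1%. Of the 11 responses, 7 were more positive in CAL27 and 0 more negative, beside 14.2% and 19.8% of all genes. UBA6, a second ubiquitin E1, rose by 0.17 in each line, and MOCS3, the E1 of URM1, by 0.51 and 0.34, while URM1 fell by 0.15 and 0.19. ATG10, the E2 of ATG12, had changes of -1.30 and -0.54.

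The 3 systems set beside NEDD8 in the plot were chosen after their values were seen. In the interferon-induced ISG15 system, the modifier, its E1 UBA7 and its E2 UBE2L6 fell in both lines. UBA7 had 1.58 and 3.21 CPM with NEDD8i and 18.8 and 18.8 with DMSO in CAL27, a change of -2.95 ± 0.18, and -1.80 ± 0.15 in A431. UBE2L6 had -1.77 and -0.79, and ISG15 -1.19 and -1.25. In the SUMO system, the E1 subunit UBA2 rose in both lines, by 0.49 and 0.53, while its partner SAE1 had -0.04 in CAL27, which did not pass, and -0.53 in A431. UFM1 rose by 0.75 and 0.89.

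**Figure D5:**
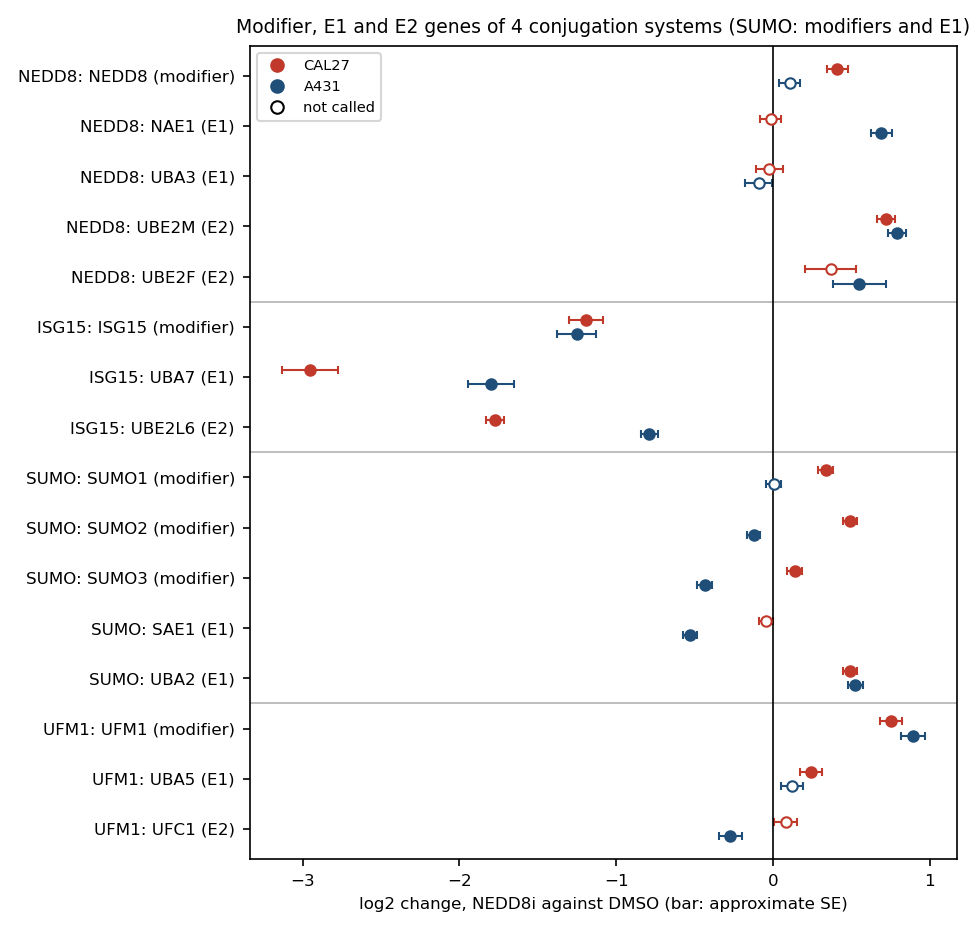
Log2 change with NEDD8i against DMSO for modifier, E1 and E2 genes of 4 conjugation systems (for SUMO, modifiers and E1), CAL27 above A431 in each row, with approximate standard errors. Filled points passed an adjusted p under 0.05. The 3 ISG15 genes lie left of 0 in both lines, from -2.95 to -0.79, and UBE2M and UFM1 lie right of 0 in both.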

How the data were processed

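The deposited values are raw whole-number counts per gene, 1 table per library. Reads were aligned to GRCh38 with STAR, per the submitters' processing notes, and featureCounts 2.0.8 counted reads of a filtered alignment in GENCODE 39 exons, per the file headers. Counting ignored strand and took mates singly, and reads in more than 1 gene or place were dropped. Between 70.2% and 76.7% of counts from 1 to 40 were even, so counting error is understated. Symbols matched 61369 of 61533 identifiers.

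Here, edgeR 4.0.16 (R 4.3.3; glmQLFit, TMM factors 0.932 to 1.06, filterByExpr) was fitted once to all 8 libraries with a mean per group (4 residual and 12.3 prior degrees of freedom, biological coefficient of variation 0.0852), adjusted over 18738 genes and called at 0.05. It was first tested on simulated data. Alternatives used DESeq2 1.42.0 and limma 3.58.1 among others.

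The 10 genes and all lists were chosen with earlier results of these data known. Named by rule are the 10 and the 3 genes most like each of 5 members. List genes were named where called the same way in both lines or changed by at least 1 on the log2 scale. COPS5, CAND1, CUL1, CUL4B, RBX1, RNF7 and SAE1 were named outside this rule. Results on 2 listed genes are not reported here. Correlations used log2 CPM with a prior count of 2. Amino acid sequences were not used here.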

Additional observations from a re-analysis of the deposited data

Results flagged for a closer look

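For 6 genes the difference between the CAL27 and A431 responses passed the edgeR quasi-likelihood test, given here as CAL27 minus A431 on the log2 scale. The response was larger in CAL27 for NEDD8 at 0.30, DCUN1D2 at 0.64 and DCUN1D4 at 0.39, and smaller for NAE1 at -0.71, DCUN1D3 at -0.56 and DCUN1D5 at -0.43. With 34% of all genes past the same test, 6 of 10 is a count and not a property of these genes. Those of NAE1, DCUN1D2 and DCUN1D5 passed under each alternative tried, and those of NEDD8, DCUN1D3 and DCUN1D4 did not.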

How the results depend on the processing

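Of 940 recomputed log2 values of the 10 genes under 19 alternatives, 863 kept their direction and their side of the threshold, 22 lost and 20 gained a call and 35 changed sign. With all libraries kept, the number of genes called stayed at 6 to 8 in CAL27 and 7 in A431. For the difference between responses it was 5 to 6, and leaving out 1 library lowered it. The number was 3 without A431 NEDD8i replicate 1 or 2, CAL27 DMSO replicate 1 or CAL27 NEDD8i replicate 1. In such fits the lone library is assumed to vary like the other groups.

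No value that changed sign was called. NAE1 in CAL27 was 0.018 with DESeq2 size factors and with the DESeq2 Wald test, 0.015 with the libraries of the comparison alone, and -0.054 to 0.025 with 1 library left out. UBA3 in CAL27 was 0.010 with DESeq2 size factors and with the Wald test, 0.0064 with the libraries of the comparison alone, and -0.11 to 0.055 with 1 library left out. For CAL27 against A431 with DMSO, UBA3 was 0.022 with a 1 CPM filter, 0.0048 with halved counts, 0.0062 with DESeq2 size factors, 0.0063 with the Wald test, 0.0014 with no filter, 0.00044 with the libraries of the comparison alone, 0.040 with upper-quartile scaling and -0.042 to 0.031 with 1 library left out. NAE1 was 0.011 there with upper-quartile scaling, and DCUN1D3 -0.35 to 0.22 with 1 library left out. With NEDD8i, that contrast was -0.0034 to 0.038 for NEDD8 and -0.0069 to 0.15 for UBA3 with 1 library left out. The difference between responses was 0.0056 for DCUN1D1 and 0.0029 for UBE2M with upper-quartile scaling. With 1 library left out it was -0.14 to 0.0045 for UBE2M, -0.026 to 0.14 for UBA3 and -0.51 to 0.11 for UBE2F. The DCUN1D3 difference lost its call with DESeq2 size factors (-0.53), the Wald test (-0.53) and upper-quartile scaling (-0.49). The cause was not tested.

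The labels do not say whether same-numbered libraries were paired. Their deviations correlated at 0.0231 in CAL27 and 0.0594 in A431 over 8698 genes, which cannot show whether they were set up together. With a replicate block, the 10 genes kept their calls in each line, except that DCUN1D4 in CAL27 passed at 0.25 (edgeR adjusted p = 0.0469), and NAE1 in CAL27 against A431 with DMSO was 0.0015. With the block, 9217 genes were called in CAL27 and 8096 in A431. UBE2F and DCUN1D3 moved most when a library was left out.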
